A study of Mus musculus with 4 samples.

Results

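Broad stable gene-end sites are stretches of open chromatin about 1000 bp wide or wider that were called in Znhit1 knockout and in control pachytene spermatocytes alike, with much the same width, at an end of a single protein-coding gene. They were chosen from the unique intervals of 1 knockout and 1 control ATAC-seq peak list on chromosomes 1 to 19. Where 1 knockout peak overlapped 1 control peak and neither overlapped any other peak, by at least 1 bp, the 2 intervals formed a pair. A pair was kept when its knockout peak lay within 1 kb of either end of exactly 1 RefSeq coding gene, when the knockout width divided by the control width lay between 0.667 and 1.5, and when the mean of both widths was at least 1000 bp. This gave 502 sites at 502 different genes, of 6216 pairs on these chromosomes and of 3888 pairs at the end of a single coding gene. Width, width ratio and place at a gene end chose the sites, so these values are given below as a description only. "Stable" refers to the width ratio alone, since the lists hold no peak height.

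The study set spermatocytes of a Znhit1 knockout (genotype label Znhit1_KO) against controls (CTRL). In ATAC-seq the Tn5 transposase cuts accessible DNA in isolated nuclei. The labels name 4 libraries from mouse testis, 2 per genotype, all tagged P35. How the knockout was made, in which cells the gene was lost and which alleles the controls carry are not stated in the labels. With 1 peak list per genotype, no difference between the genotypes has a replicate check and none was tested.

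ZNHIT1 is a subunit of the SRCAP complex, a chromatin remodeller that exchanges H2A for the histone variant H2A.Z. H2A.Z is found above all in the nucleosomes that flank the start sites of genes. Open chromatin at a mammalian promoter is usually a nucleosome-depleted stretch around the start, and promoters in CpG islands, regions rich in unmethylated CpG dinucleotides, tend to be open in many cell types whether or not the gene is specific to one of them. Pachytene is the long stage of meiotic prophase in which paired homologous chromosomes complete recombination and a large germ cell transcription programme begins.

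The promoters of 8 members show what lies in such sites. The first 4 belong to the widest members whose listed start lies in both peaks, Ran has the most CpG, Stip1 is the widest with a TATA box just before its start, and the germ cell genes Boll and Sycp2 were chosen after their values were seen. Each runs 5′ to 3′ along the gene, from 250 bases before to 30 bases after the start listed by RefSeq (GRCm38.p6, the assembly of mm10), and capitals mark 3 motifs on either strand. The first is the GC box, GGGCGG. The other motifs are the CCAAT box and the TATA box, here the letters TATAAA. Rab28 (chr5:41708150-41708429, minus strand) encodes a small GTPase of cilia.
Rab28: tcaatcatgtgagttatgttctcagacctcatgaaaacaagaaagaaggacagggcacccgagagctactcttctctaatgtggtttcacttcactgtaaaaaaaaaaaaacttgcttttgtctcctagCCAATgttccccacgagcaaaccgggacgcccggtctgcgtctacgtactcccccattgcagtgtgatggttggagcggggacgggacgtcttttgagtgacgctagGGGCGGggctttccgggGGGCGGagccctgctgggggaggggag
Garnl3 lies on chr2:33130590-33130869, minus strand.
Garnl3: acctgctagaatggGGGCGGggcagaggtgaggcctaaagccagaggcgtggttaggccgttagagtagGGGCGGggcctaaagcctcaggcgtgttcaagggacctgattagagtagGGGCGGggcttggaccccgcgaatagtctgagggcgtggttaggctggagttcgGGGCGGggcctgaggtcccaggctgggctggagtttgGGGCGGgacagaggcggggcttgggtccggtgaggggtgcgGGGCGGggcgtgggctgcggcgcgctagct
Ypel5 lies on chr17:72836378-72836657, plus strand.
Ypel5: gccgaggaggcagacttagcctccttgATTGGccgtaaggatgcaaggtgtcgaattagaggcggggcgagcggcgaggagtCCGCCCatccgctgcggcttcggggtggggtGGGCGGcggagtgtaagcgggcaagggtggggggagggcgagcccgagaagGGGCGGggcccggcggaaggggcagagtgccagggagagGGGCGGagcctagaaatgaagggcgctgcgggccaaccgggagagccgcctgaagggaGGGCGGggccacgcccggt
Zdhhc5 (chr2:84715135-84715414, minus strand) encodes a palmitoyltransferase.
Zdhhc5: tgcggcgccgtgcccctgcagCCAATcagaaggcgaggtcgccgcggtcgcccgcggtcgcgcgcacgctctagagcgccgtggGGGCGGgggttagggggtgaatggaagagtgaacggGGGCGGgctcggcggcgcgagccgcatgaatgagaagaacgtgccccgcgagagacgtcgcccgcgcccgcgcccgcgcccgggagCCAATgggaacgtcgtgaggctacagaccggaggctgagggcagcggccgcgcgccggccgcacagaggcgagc
Ran (chr5:129019906-129020185, plus strand) encodes the GTPase of nuclear transport.
Ran: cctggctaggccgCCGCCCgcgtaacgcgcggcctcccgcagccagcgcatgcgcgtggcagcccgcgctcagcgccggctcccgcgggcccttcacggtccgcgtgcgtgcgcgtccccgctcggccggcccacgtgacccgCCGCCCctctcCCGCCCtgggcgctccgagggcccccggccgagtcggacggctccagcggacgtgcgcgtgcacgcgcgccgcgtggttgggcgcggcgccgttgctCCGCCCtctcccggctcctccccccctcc
Stip1 (chr19:7039997-7040276, minus strand) encodes a cochaperone that links HSP70 and HSP90.
Stip1: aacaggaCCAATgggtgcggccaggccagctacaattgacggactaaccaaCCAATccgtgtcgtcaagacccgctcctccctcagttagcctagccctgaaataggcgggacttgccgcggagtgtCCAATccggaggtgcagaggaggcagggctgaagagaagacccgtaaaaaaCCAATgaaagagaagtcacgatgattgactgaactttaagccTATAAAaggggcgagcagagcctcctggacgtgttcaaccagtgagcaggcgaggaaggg
Boll (chr1:55362699-55362978, minus strand) encodes a germ cell RNA-binding protein of the DAZ family.
Boll: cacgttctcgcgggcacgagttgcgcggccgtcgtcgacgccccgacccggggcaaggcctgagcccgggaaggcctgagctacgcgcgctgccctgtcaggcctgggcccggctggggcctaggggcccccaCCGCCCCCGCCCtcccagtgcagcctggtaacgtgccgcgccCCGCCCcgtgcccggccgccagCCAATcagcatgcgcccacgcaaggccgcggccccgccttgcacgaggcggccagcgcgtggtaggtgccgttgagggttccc
Sycp2 (chr2:178407629-178407908, minus strand) encodes a protein of the chromosome axis.
Sycp2: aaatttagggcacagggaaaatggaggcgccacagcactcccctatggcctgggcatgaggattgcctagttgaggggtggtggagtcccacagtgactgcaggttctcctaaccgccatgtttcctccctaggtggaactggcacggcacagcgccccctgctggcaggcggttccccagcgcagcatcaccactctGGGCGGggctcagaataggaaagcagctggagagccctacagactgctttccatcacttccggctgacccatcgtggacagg
The Garnl3 stretch repeats the GC box 6 times and the Ypel5 stretch holds 5 GC boxes. In the full 300-base window, Ran has 58 CpG and a G+C content of 82%, and Zdhhc5 has 52 CpG and 75.3%. Sycp2, with 10 CpG and a ratio of observed to expected CpG of 0.36, stands at the CpG-poor end. The TATAAA of Stip1 begins 30 bases before the start, behind 4 CCAAT boxes.

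Over chromosomes 1 to 19 the knockout list held 20845 unique intervals and the control list 15241. The labels give over 30000000 reads for each library, and the reads behind either list are not known more closely. Each list is filed under replicate 1 of its genotype, and replicate 2 has no list here. Whether reads of replicate 2 were pooled into these lists is not known. The labelled cell type was set against marker genes. Both lists held a gene-end peak for 7 of 8 genes that mark pachytene spermatocytes, and 2 of the 8, Mybl1 and Hspa2, are at broad stable sites. No marker of spermatogonia (12), spermatids (6), Sertoli cells (8) or Leydig, peritubular, endothelial and immune cells (14) was a member. Among these 40 genes, 1 of spermatogonia was open at an end in both genotypes, and the rest in 1 genotype or in neither. Over all 20665 coding genes of chromosomes 1 to 19, 6213 were open at an end in both genotypes and 2.43% were members. At that share a set of 40 genes can easily hold no member, so the missing members say nothing about cell type. The marker counts were not tested against these shares. An open gene end does not measure expression.

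Broad pairs were a minority of the shared peaks, and most lay at a gene end. Of the 6216 pairs, 865 had a mean width of at least 1000 bp. Of these, 574 (66.4%, Wilson 95% interval 63.1 to 69.4) lay at the end of 1 coding gene, 201 (23.2%, 20.5 to 26.2) at ends of several, and 90 (10.4%, 8.54 to 12.6) at none. Among the 5351 narrower pairs, 23.3% (22.2 to 24.4) lay at none. A wider peak comes within 1 kb of a gene end more easily, which enters these percentages. The width ratio lay inside the bounds in 761 of the 865 broad pairs (88.0%, 85.6 to 90.0) and in 3740 of the 5351 narrower ones (69.9%, 68.7 to 71.1). All such intervals cover counting error only, and neighbouring sites are not independent. The members made up 2.41% of the knockout intervals and 6.18% of their length, and 3.29% of the control intervals and 7.55% of their length.

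Taken as a set, the 502 sites had nearly the same width in both genotypes. Median widths were 1150.5 bp for knockout peaks (quartiles 1041 and 1266 bp, range 826 to 1879 bp) and 1149 bp for control peaks (1038 and 1273 bp, 831 to 1757 bp). The knockout peak was the wider at 250 sites, the control peak at 251, and at 1 site, Taf15, the widths were equal. The median width ratio was 0.999, with quartiles of 0.877 and 1.15. The knockout peak was at least 25% wider than the control peak at 75 sites (14.9%), against 28.4% of all 6216 pairs, and the control peak at least 25% wider at 70 (13.9%), against 23.4%. The rule bounds the ratio and so fixes part of this, and nothing is read from the smaller percentages. The ratio was within 10% of equality at 184 sites.

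**Figure D1:**
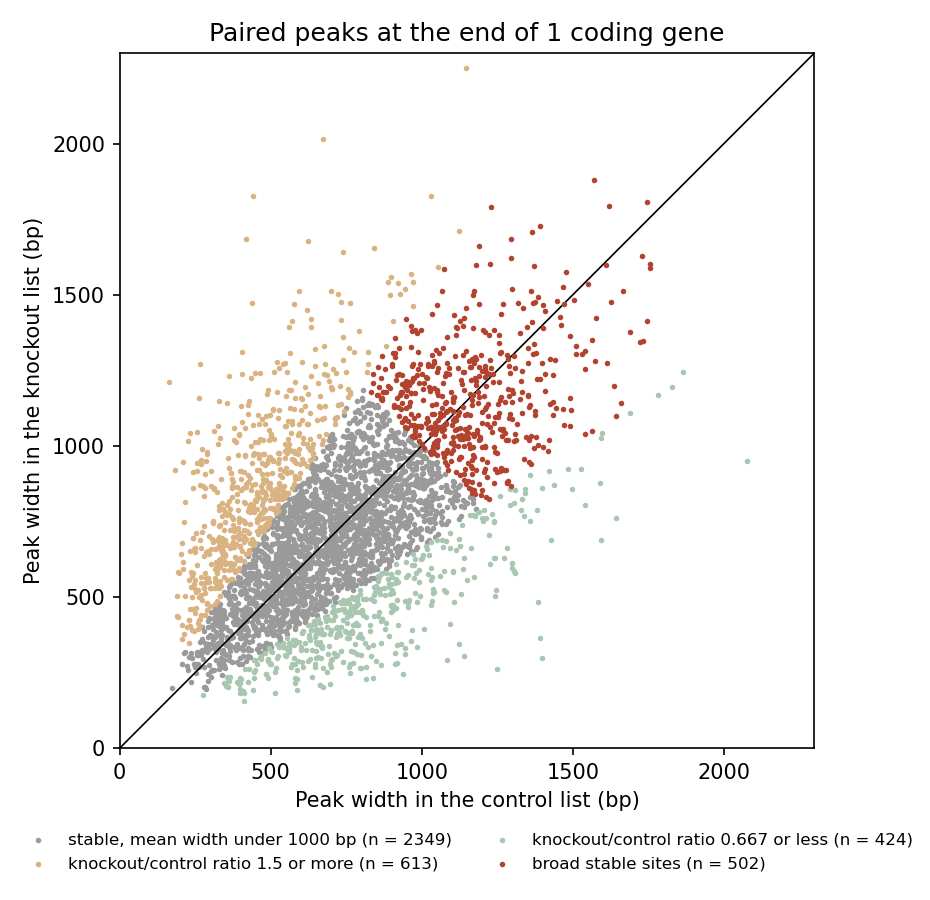
Width of each pair of peaks at the end of 1 coding gene, control on the horizontal and knockout on the vertical axis (bp), with a line of equal width. The 502 broad stable sites (dark red) fill the upper end of the band between the ratio bounds, 250 above the line, 251 below and 1 on it.

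The 2 intervals of a site also lay in nearly the same place. The length shared by both peaks was a median of 80.4% of the length covered by either (quartiles 71.6 and 88.4%), and it was at least 50% at 492 of the 502 sites. Peak centres were a median of 93.75 bp apart, and at 266 sites they were within 100 bp. Ordinary stable sites, which meet the rule except for a mean width under 1000 bp, had a median shared length of 76.5%. Their centres were a median of 67.5 bp apart, and within 100 bp at 1546 of 2349. The bounded width ratio enters the shared length in both classes. Among the 502 sites, the control peak lay inside the knockout peak at 118 and the knockout peak inside the control peak at 118, Taf15 being counted in both. Taf15, which encodes an RNA-binding protein of the FET family, had the same interval in both lists, chromosome 11 from 83472615 to 83473784. Myh10, a nonmuscle myosin heavy chain gene, had the same start coordinate in both lists, and its other edge differed by 6 bp. A wider site with close edges was 4931408C20Rik, with differences of 8 and 7 bp over 1536 bp (knockout) and 1551 bp (control). At the other extreme, Ankrd10, an ankyrin repeat gene, had peaks of 1071 and 1315 bp that shared 483 bp, with centres 710 bp apart.

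The 10 widest sites reached from 1390 to 1879 bp in either list. LOC108167320 had 1808 bp (knockout) and 1745 bp (control) (chromosome 9, 124439106 to 124440913 in the knockout). Ankhd1, an ankyrin repeat gene, had 1879 and 1570 bp on chromosome 18 (36559456 to 36561334). Rab28 had 1601 bp (knockout) and 1757 bp (control), and Garnl3 had 1627 and 1730 bp. These 4 had the largest mean widths, and the control peak was the wider at Rab28 and Garnl3. Ypel5 had 1589 and 1755 bp, and Csnk1d, a casein kinase gene, had 1599 and 1609 bp (chromosome 11, 120990125 to 120991723). Zdhhc5 had 1514 bp (knockout) and 1667 bp (control). Boll had 1414 and 1747 bp, with one edge only 5 bp apart between the lists and the other 338 bp apart. Ran, at 1728 and 1390 bp, was wider in the knockout. Eif4g2, a translation initiation factor gene, had 1477 and 1625 bp. Of these 10, 7 were wider in the control and 3 in the knockout, with ratios between 0.809 and 1.24. Genes with Gm or Rik names were passed over in this ranking, and LOC108167320 is a predicted gene whose site lies beyond its far end.

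At the ends of the allowed ratio the difference lay mainly at 1 edge of some sites and was spread over both edges of others. Poldip3 had 1420 bp (knockout) and 949 bp (control) (ratio 1.496). Crem, a transcription factor gene of the spermatid programme, had 1298 and 868 bp, with one edge 517 bp apart and the other 87 bp apart. Pou2f1, which encodes OCT1, had 1356 and 913 bp. Zfp541, a germ cell zinc finger gene, had 1237 bp (knockout) and 837 bp (control), and Phf13 had 1585 and 1074 bp, with edges 288 and 223 bp apart. In the other direction Rps6ka5, a kinase gene, had 1041 and 1541 bp, Cbll1, a ubiquitin ligase gene, 1051 and 1563 bp, Fam117b 869 and 1295 bp, and Glrx3, a glutaredoxin gene, 826 and 1223 bp.

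The limits of the rule run through a continuous range of widths. Just inside the width limit were Vps37c (mean width 1000.5 bp), Aspscr1 and Crocc (both 1001.5 bp), and just outside it Arid4a and Gmcl1 (both 998.5 bp) and Sesn3 (998 bp). Broad sites just beyond the ratio limits were Lrba (1.506) and Ubtd2 (1.509) above and Rbm15 (0.6668) and Pcgf1 (0.6657) below.

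Most member intervals stood on several lines of each list, a property the rule did not use, and more often on more lines in the control than in the knockout. An interval that MACS2 splits into several summits can be repeated for each, though neither list says why lines repeat. The median was 3 lines in both lists. A single line was found at 10 knockout and 7 control intervals, 5 lines at 28 and 53, and 6 lines at 4 and 12. The control interval had more lines at 202 sites (40.2%, 36.0 to 44.6) and the knockout interval at 141 (28.1%, 24.3 to 32.2), with equal numbers at 159. Over all 6216 pairs the percentages were 31% and 25.5%. The sum over the members was 1557 lines in the knockout and 1677 in the control. Per kb of peak the median was 2.68 lines in the knockout and 2.90 in the control, against 2.64 and 2.92 at the 2349 ordinary stable sites, which meet every other term of the rule but have a mean width under 1000 bp. The 363 broad pairs that are not members had a mean of 3.22 and 3.36 lines, against 3.10 and 3.34 for the members. Per kb, broad and ordinary sites were thus close to each other, and the control value was the higher in both classes.

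**Figure D2:**
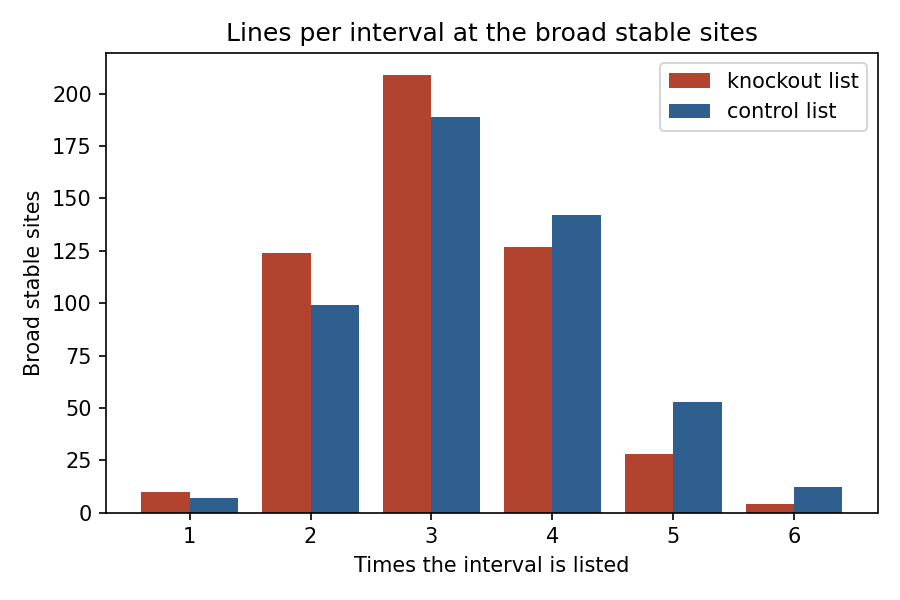
Number of broad stable sites (vertical axis) whose interval was listed 1 to 6 times (horizontal axis), with knockout bars in red and control bars in blue. The knockout bars are taller at 1 to 3 lines and the control bars at 4 to 6 lines.

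Line number followed width within a site. Where the knockout peak was at least 25% wider than the control peak, it had more lines at 51 of 75 sites and fewer at 3. Where the control peak was at least 25% wider, the knockout peak had more lines at 4 of 70 sites and fewer at 52. At the 357 sites in between, the knockout had more at 86 and the control at 147. The sites with the most lines in both lists together, 11 each, were LOC108167320, Ankhd1, Ypel5, Csnk1d and Alkbh5, an RNA demethylase gene with peaks of 1273 bp (knockout) and 1353 bp (control). Rps6ka5 had 1 line in the knockout and 4 in the control. Taf15, with equal intervals, had 4 lines in the knockout and 2 in the control, so the lines can differ where the edges do not.

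Nearly all sites lay over a gene start, not over the far end of the gene. The rule counted either end alike, and the RefSeq promoter table, which gives the strand, listed 424 of the 502 genes. The knockout peak was within 1 kb of the outermost start of 422 of these (99.5%, 98.3 to 99.9), and 2 sites lay at the far end alone. These were LOC108167320 and Gm46933. The listed start nearest to the site lay inside the knockout peak at 408 genes (96.2%, 94.0 to 97.7), inside the control peak at 398 (93.9%) and inside neither at 15. That start lay inside both peaks at 397 genes, none of them on chromosome 18. At ordinary sites the knockout peak covered a listed start at 1765 of 1905 genes (92.7%, 91.4 to 93.7). Among the 15 were Zfp541 and Lin28b, where the peaks covered the annotated outer end of the gene and the listed start lay further in, outside both peaks.

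The peaks reached further into the gene than away from it, in both genotypes. At the 409 sites with a listed start in at least 1 of the 2 peaks, the knockout peak extended a median of 514 bp upstream and 631 bp downstream of the start, and the control peak 515 and 643 bp. The downstream part was the longer at 249 of the 409 sites in the knockout (60.9%, 56.1 to 65.5) and at 245 of the control peaks (59.9%, 55.1 to 64.5). It was the longer in both lists at 202 sites, and the upstream part at 117. Ordinary sites had the same lean, with medians of 299 bp upstream and 376.5 bp downstream in the knockout and the downstream part the longer at 60.9% of 1774. Position 500 bp downstream of the start was covered at 71.6% of the broad sites by knockout peaks and 73.6% by control peaks, and 500 bp upstream at 51.3% and 53.3%. The downstream edge moved more between the lists, by a median of 127 bp (109 to 156), than the upstream edge, by 77 bp (69 to 93). The same order held at ordinary sites, with medians of 86 bp (81 to 91) downstream and 64.5 bp (60 to 69) upstream. Median signed differences at the broad sites, knockout extent minus control extent, were 2 bp upstream and -8 bp downstream. Ep300, which encodes the p300 acetyltransferase, had the longer part upstream, with 1276 bp upstream and 319 bp downstream for the knockout peak and 1364 and 7 bp for the control peak.

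**Figure D3:**
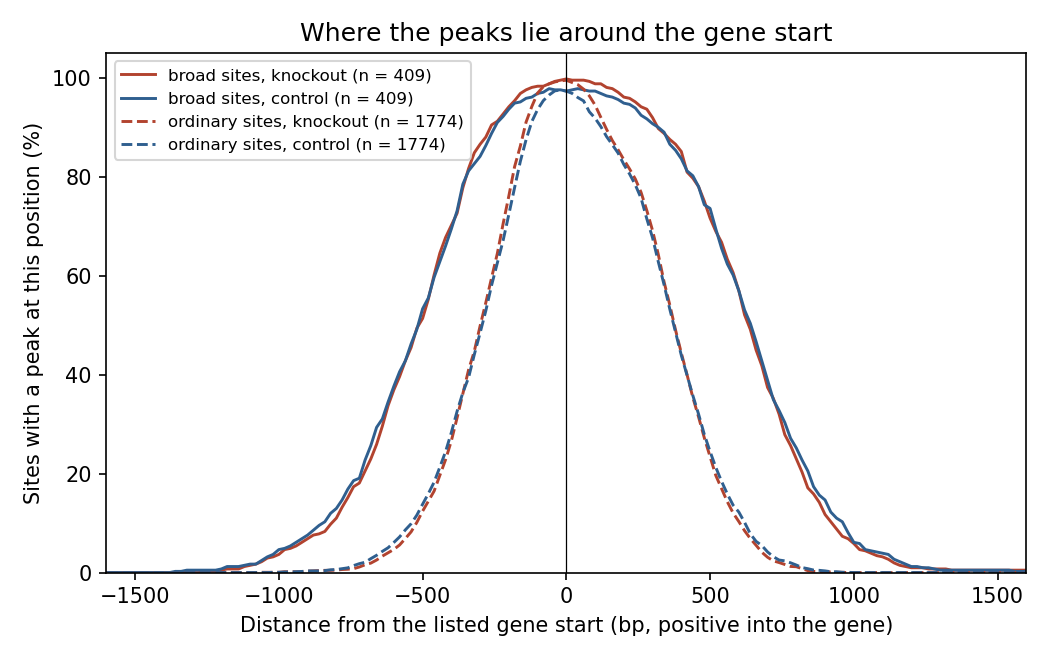
Percentage of sites with a peak at each distance from the listed gene start (horizontal axis, bp, positive into the gene), for 409 broad sites (solid) and 1774 ordinary sites (dashed) in the knockout (red) and the control (blue). The knockout and control curves lie close together, and the curves of both classes are shifted towards the gene body. In the knockout, coverage 500 bp downstream and upstream of the start is 71.6% and 51.3% at broad sites. At ordinary sites it is 23.4% and 12.4%.

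The promoters of the broad sites were rich in G, C and CpG. Over the 300-base window from 250 bases before to 50 after the start, median G+C content was 67.3% (95% interval of the median 66.7 to 68.3, n = 409), against 62.3% (62.0 to 63.0, n = 1774) at ordinary sites and 57.0% over 20085 listed promoters of coding genes on these chromosomes. The median number of CpG was 30, 24 and 14 in the same order. Observed over expected CpG, which divides the number of CpG by that expected from the C and G content, had medians of 0.902 (0.887 to 0.930), 0.832 (0.822 to 0.840) and 0.586. G+C above 55% together with a ratio above 0.65, as in CpG islands, was met by 364 of the 409 broad promoters (89.0%, 85.6 to 91.7), 1328 of 1774 ordinary ones (74.9%, 72.8 to 76.8) and 7826 of all 20085 (39.0%). The intervals of broad and ordinary sites did not overlap in these measures. Single-gene pairs wider in the knockout, with a ratio of 1.5 or more, had medians of 65.0% (63.7 to 66.0) and 0.864 (0.848 to 0.894, n = 466). Their CpG interval overlapped that of the broad sites. Pairs narrower in the knockout, with a ratio of 0.667 or less, had medians of 61.3% and 0.827 (n = 328). Width and G+C content differed together between broad and ordinary sites, and the part of sequence preference of Tn5 in peak width was not tested. Among the broad sites themselves, mean width and G+C content had a Pearson correlation of 0.11 over the 409 promoters, given as a description.

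**Figure D4:**
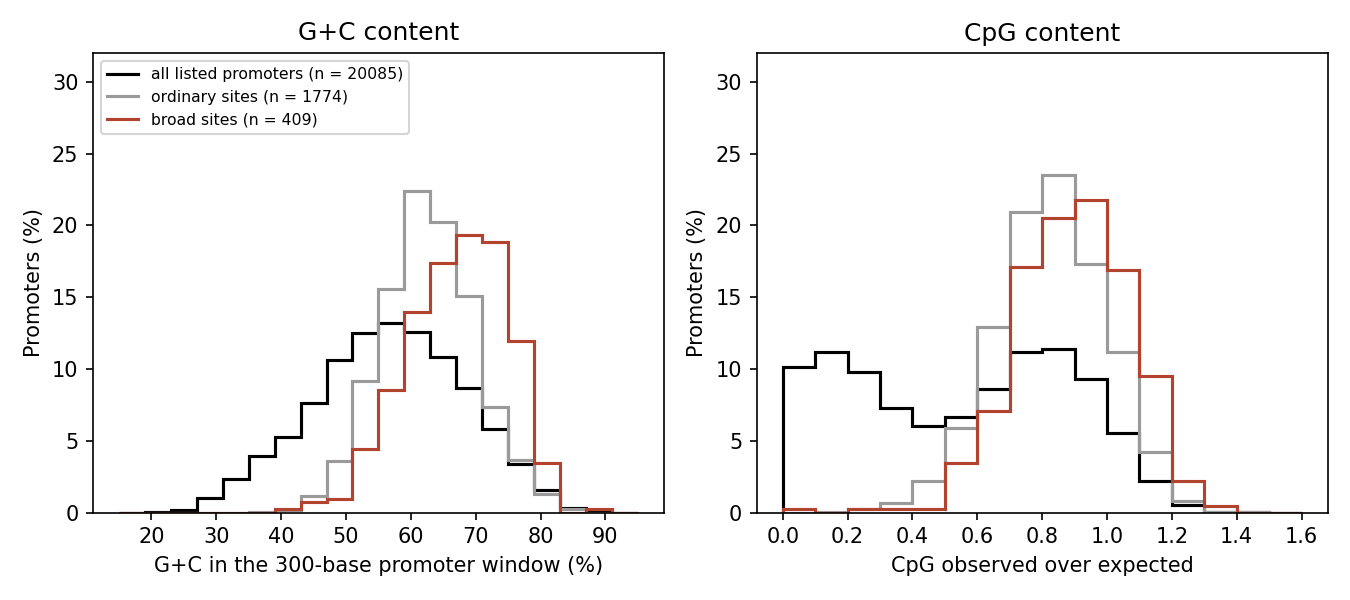
Distribution of G+C content (left, % of the 300-base window) and observed over expected CpG (right) for promoters of broad sites (red, n = 409), ordinary sites (grey, n = 1774) and all listed coding promoters (black, n = 20085), as % of promoters per bin. The broad sites lie furthest to the right, with medians of 67.3% G+C and 0.902, and few of them reach into the CpG-poor range that many of all promoters occupy.

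Short promoter motifs were searched on both strands of the same windows, and a match is a description of the letters only. GGGCGG, the GC box bound by SP and KLF factors, was present in 346 of 409 broad promoters (84.6%, 80.8 to 87.8), 74.4% of ordinary ones (72.3 to 76.3) and 47.0% of all. Within bands of G+C content this gap closed only from 60% upward. It was 82.8% of broad and 83.1% of ordinary promoters from 60 to 70% G+C, and 95% and 93.9% from 70%. Under 60% a gap remained, with 65.2% of 69 broad and 53.4% of 624 ordinary promoters. The intervals there overlapped (53.4 to 75.4 and 49.4 to 57.2). CCAAT, the NF-Y motif, was present in 46.5% (41.7 to 51.3), 44.6% and 38.1%. CCGGAAG, the ETS motif, went the other way, with 55 of 409 broad promoters (13.4%, 10.5 to 17.1) against 440 of 1774 ordinary ones (24.8%, 22.8 to 26.9) and 11.9% of all. TTCCGG, the core that every CCGGAAG match also holds on the other strand, gave 24.7% (20.8 to 29.1), 35.8% (33.6 to 38.1) and 19.1%. In the same bands the CCGGAAG percentages were 7.25 and 26.6% under 60%, 17.8 and 26.1% from 60 to 70%, and 11.25 and 16.8% from 70%, broad before ordinary each time, on 69, 180 and 160 broad promoters. The intervals were apart under 60% (3.13 to 15.9 and 23.3 to 30.2) and overlapped from 60 to 70% (12.9 to 24.0 and 23.3 to 29.1) and from 70% (7.24 to 17.1 and 12.9 to 21.6). Under 60% only 5 of the 69 broad promoters had a match. For TTCCGG the percentages in the same bands were 27.5 and 38.1%, 26.7 and 36.4%, and 21.25 and 28.6%. Its intervals overlapped in every band, under 60% with 18.4 to 39.0 and 34.4 to 42.0.

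The remaining motifs were about as frequent at broad as at ordinary sites, with overlapping intervals. TGACGT, a cAMP response element bound by CREB and CREM, was present in 14.9% of broad and 16.6% of ordinary promoters, against 8.59% of all. GCATGCG (NRF1) was present in 10.3% and 11.4%, against 4.51%, CACGTG (E-box) in 12.5% and 14.0%, against 7.89%, and AAGATGG (YY1) in 7.58% and 8.91%, against 6.29%. AACNGTC (MYB) was present in 7.09% and 7.95%, against 7.25%. TATAAA was present in 21 broad promoters (5.13%, 3.38 to 7.72) and 5.81% of ordinary ones, against 12.7% of all. At 7 of 397 broad sites whose listed start lay in both peaks it began on the sense strand in the stretch from 50 to 10 bases before the start. Neighbouring motifs can share letters, and differences between site classes were not tested.

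Genes on 20 lists, of 661 entries and 637 different autosomal coding genes, were looked up among the sites. Members accounted for 68 of them, and 2.43% of all 20665 autosomal coding genes are members. A member needs a peak in both lists, so each count is given with the number of ordinary sites and, for lists with members, of genes open in both genotypes, that is with a gene-end peak in each list. Of all 6213 coding genes open in both, 502 are members (8.08%, 7.43 to 8.78), which is the share to read the open genes of a list against. The lists were chosen with earlier results known, and no difference between a list and all genes was tested. Of 15 SRCAP and H2A.Z genes, 3 were members and 5 had an ordinary site, with 11 open in both genotypes. Srcap, the ATPase of the complex that ZNHIT1 belongs to, had 1382 bp (knockout) and 1239 bp (control) (chromosome 7, 127511615 to 127512996 in the knockout). Ep400, the related ATPase of the TIP60 complex, had 1169 and 852 bp, and Ing3, a TIP60 subunit that reads methylated H3K4, had 999 and 1211 bp. Both width orders occurred among these 3.

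Of 21 autosomal pachytene transcription regulators, 6 were members (28.6%, 13.8 to 49.96) and 9 had an ordinary site, with 18 open in both genotypes. Mybl1, which encodes A-MYB, the main activator of pachytene genes, had 1144 bp (knockout) and 1079 bp (control), with 5 and 4 lines (chromosome 1, 9699704 to 9700847 in the knockout). Ep300 had 1596 and 1372 bp, Nrf1, a factor of mitochondrial and germ cell genes, had 1208 and 990 bp, and Crem had 1298 and 868 bp as given above. Max, the partner of MYC and MGA, had 1056 bp (knockout) and 1260 bp (control), and Rbm46, which encodes a germ cell RNA-binding protein, had 1005 and 1050 bp. In this list 4 were wider in the knockout and 2 in the control.

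Among 17 axis and synaptonemal complex genes, 2 were members and 5 had an ordinary site, with 8 open in both. Sycp2 had 1077 bp (knockout) and 1079 bp (control), with 2 and 1 lines, and Syce1, a central element gene, had 993 and 1160 bp. No member was found among 34 recombination genes (9 ordinary), 17 genes of the DNA damage response and sex chromosome inactivation (5 ordinary) or 24 piRNA pathway genes (11 ordinary). Of these, 21, 14 and 15 were open in both genotypes. Upper Wilson limits for 0 members were 15.5%, 21.5% and 20.4% of these open genes, above the 8.08% of all open genes, so a lower share was not detectable with lists of this size. Of 29 genes of the meiotic divisions and cell cycle, Hspa2, the HSP70 of spermatocytes, had 1019 bp (knockout) and 1313 bp (control), and Fzr1 had 886 and 1141 bp. A further 6 had an ordinary site, and 17 were open in both genotypes, of which the 2 members are 11.8% (3.29 to 34.3).

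Regulators of RNA, protein folding, ubiquitin and chromatin held most of the listed members. Of 48 RNA-binding and splicing factor genes, 13 were members (27.1%, 16.6 to 41.0) and 6 had an ordinary site, with 41 open in both genotypes, of which the members are 31.7% (19.6 to 47.0). Sf1, which recognises the branch point, had 1483 bp (knockout) and 1505 bp (control), and Hnrnpr had 1481 and 1449 bp. Srsf1, an SR protein gene, had 1276 and 1614 bp, Luc7l2 had 1288 and 1425 bp, and Ptbp1, a repressor of exons, had 1468 and 1190 bp. The 13 divided evenly, 6 wider in the knockout, 6 in the control and Taf15 equal.

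Of 32 genes of chaperones and heat shock factors, 8 were members (25%, 13.3 to 42.1) and 6 had an ordinary site, with 29 open in both, of which the members are 27.6% (14.7 to 45.7). Stip1 had 1445 bp (knockout) and 1407 bp (control), and Hsp90aa1, the inducible HSP90, had 1220 and 1391 bp. Hspa9, the HSP70 of mitochondria, had 1126 and 1444 bp, and Hspa5, that of the endoplasmic reticulum, had 1238 and 1236 bp. With Hspa2, 4 were wider in the knockout and 4 in the control. No member was found among 40 immediate early and stress factor genes (8 ordinary), of which 13 were open in both genotypes. The upper limit for 0 of 40 is 8.76%, above 2.43%.

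Of 66 chromatin and transcription regulators, 13 were members (19.7%, 11.9 to 30.8) and 8 had an ordinary site, with 41 open in both, of which the members are 31.7% (19.6 to 47.0). Kmt2e, an MLL family gene, had 1513 bp (knockout) and 1172 bp (control), and Setd2, the H3K36 methyltransferase, had 1362 and 1085 bp. Sp1, which encodes a factor that binds GC boxes, had 1235 and 1436 bp, Kat6b, an acetyltransferase gene, had 1303 and 1367 bp, and Ctcf, the insulator factor, had 1307 and 1057 bp. The Polycomb genes Eed and Suz12 had 1276 and 1177 bp in the knockout and 1085 and 871 bp in the control. In all, 8 of the 13 were wider in the knockout and 5 in the control, with ratios from 0.820 to 1.35.

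Of 46 ubiquitin ligase and protease genes, 10 were members (21.7%, 12.3 to 35.6) and 11 had an ordinary site, with 31 open in both, of which the members are 32.3% (18.6 to 49.9). Ube2d3, an E2 enzyme gene, had 1663 bp (knockout) and 1190 bp (control), and Cul1, a cullin gene, had 1602 and 1225 bp. Ube3a had 1297 and 1306 bp, Rbx1 had 1140 and 1221 bp, and Mdm2, the p53 ligase, had 1161 and 1191 bp. Of 50 signalling kinase and phosphatase genes, 6 were members and 16 had an ordinary site, with 36 open in both and Csnk1d the widest. Map3k3 had 1071 and 1217 bp, Dyrk1a had 1184 and 1051 bp, and Stk11, which encodes the kinase LKB1, had 1217 bp (knockout) and 916 bp (control).

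Of 27 general housekeeping genes, 5 were members (18.5%, 8.18 to 36.7) and 8 had an ordinary site, with 17 open in both, of which the members are 29.4% (13.3 to 53.1). Eif4g2 was the widest, Eef1a1, the elongation factor, had 1423 bp (knockout) and 1577 bp (control), and Ppia, a cyclophilin gene, had 1107 and 1293 bp. Vcp, the p97 ATPase, had 1255 and 878 bp. Of 48 cytosolic ribosomal protein genes, 1 was a member (2.08%, 0.369 to 10.9), Rps29, with 1085 and 1103 bp, with 38 open in both, of which this is 2.63% (0.466 to 13.5), and 22 at ordinary sites. No member was found among 39 developmental regulators (1 ordinary), 34 spermiogenesis genes (3 ordinary), 19 spermatogonial, 17 Sertoli cell and 18 other somatic cell genes (0 ordinary in each of the last 3). Upper limits for these 0 counts ran from 8.97% to 18.4%, above 2.43%, and at most 8 genes of any of these lists were open in both genotypes.

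**Figure D5:**
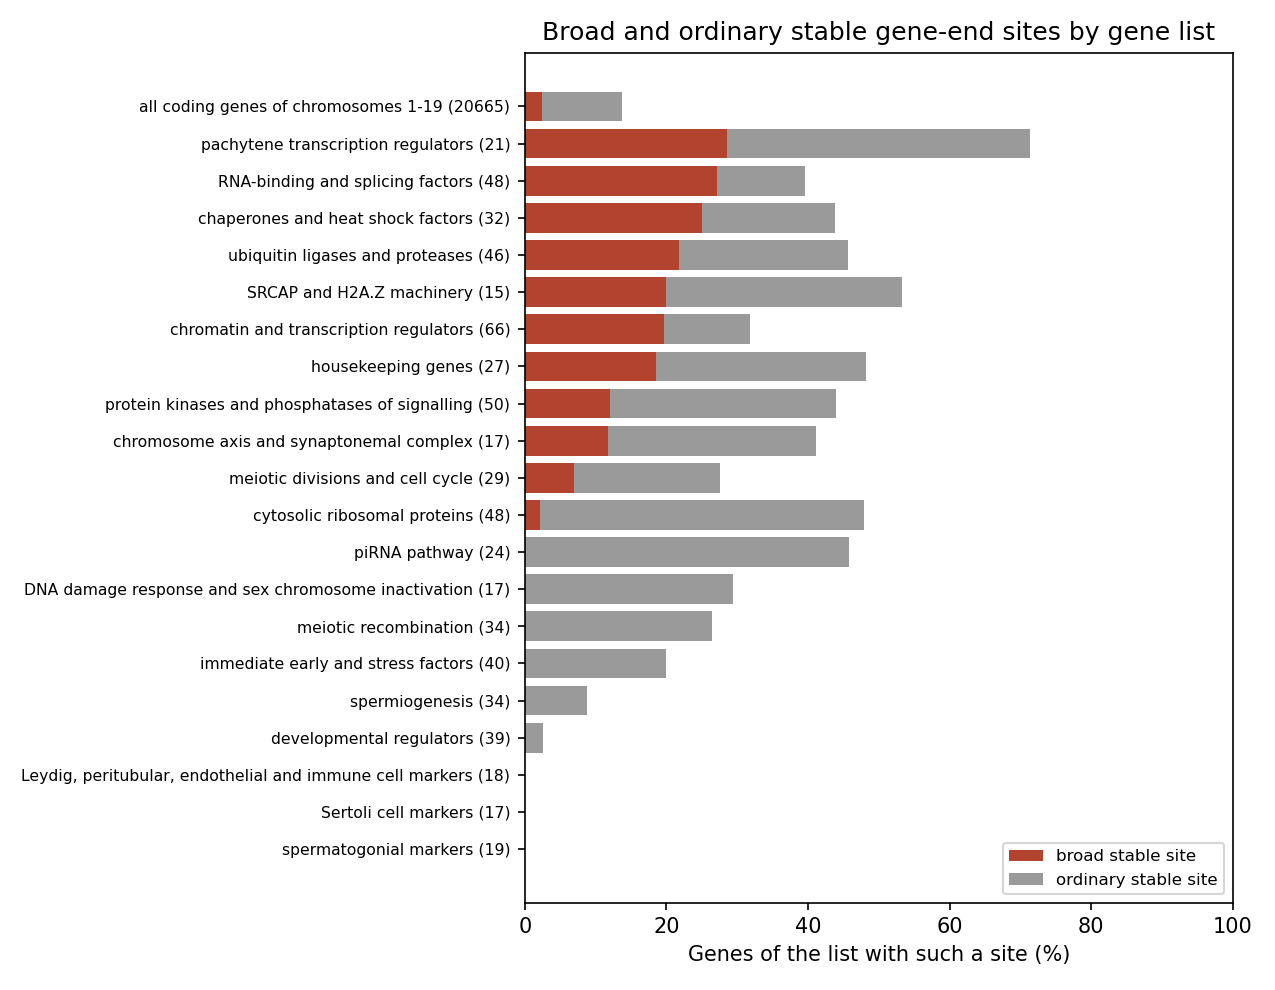
Percentage of the autosomal coding genes of each list (number in brackets) with a broad stable site (red) or an ordinary stable site (grey), with all 20665 genes in the top bar. Pachytene transcription regulators (28.6%) and RNA-binding and splicing factors (27.1%) have the longest red bars, while ribosomal protein genes have 1 broad site beside 22 ordinary ones.

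Further germ cell genes were among the sites and were picked out after the members were seen. Nr6a1, which encodes the orphan receptor GCNF, had 1792 bp (knockout) and 1229 bp (control). Dazl, an RNA-binding protein gene of germ cells, had 1227 and 1210 bp (chromosome 17, 50292698 to 50293924 in the knockout), and Meioc, needed to sustain meiotic prophase, had 1260 and 1160 bp. Sox30, a transcription factor gene of the spermatid programme, had 1155 and 1325 bp, and Brwd1 had 1303 and 1510 bp. Slc25a31, the ADP/ATP carrier of germ cells, had 1062 bp (knockout) and 998 bp (control). The knockout peak was the wider at Nr6a1, Dazl, Meioc and Slc25a31 and the control peak at the others.

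Few other peaks lay close to a broad site. Another knockout peak lay within 2 kb of 7 of the 502 knockout intervals (1.39%, 0.677 to 2.85) and another control peak within 2 kb of 11 control intervals (2.19%, 1.23 to 3.88). At ordinary sites these were 137 of 2349 (5.83%, 4.95 to 6.85) and 113 (4.81%, 4.02 to 5.75). Within 10 kb the percentages were 17.1% and 15.1% at broad sites and 22.6% and 18.4% at ordinary ones. A peak that overlapped more than 1 peak of the other list formed no pair, so the rule itself drops some sites with close neighbours. The part of this rule and of peak width in these counts was not tested. The end of a long non-coding RNA gene lay within 1 kb of the centre of the knockout peak at 102 broad sites (20.3%, 17.0 to 24.1), against 14.6% (13.2 to 16.0) at ordinary sites. At 47 of 409 sites (11.5%, 8.75 to 14.9) a listed start of such a gene on the opposite strand lay within 1 kb upstream, against 8.91% (7.67 to 10.3) at ordinary sites. The widest of these were Dazap2 with C330013E15Rik, 552 bp apart, Pkn2 with 9530052C20Rik, 491 bp apart, and Sec16a with 0610009E02Rik, 708 bp apart. At 9 sites the part covered by both peaks held a small RNA gene, among them the U12 spliceosomal RNA gene Rnu12 at Poldip3 and tRNA genes at Agbl5, Rab11a, Sacm1l and Tmpo.

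Genes with a broad site were of median length 31209 bp (28388 to 34648), against 27625 bp (26146 to 29045) at ordinary sites and 17491 bp over all autosomal coding genes. The intervals of broad and ordinary sites overlapped. By chromosome, the percentage of coding genes with a broad site ran from 1.51% on chromosome 6 (17 of 1126, 0.945 to 2.40) to 4.86% on chromosome 12 (33 of 679, 3.48 to 6.75), against 2.43% over all 19.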

How the data were processed

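ATAC-seq peak lists of mouse pachytene spermatocytes were analysed, 1 filed under replicate 1 of the Znhit1 knockout and 1 filed under replicate 1 of the control. Per the submitters' processing notes, the tools were MACS2 2.2.4, Picard 2.20.7, Bowtie2 2.3.4.3 and cutadapt 2.5, with build mm10. For their roles, the peak threshold, read shifting and any pooling of replicates, details were not given in the sources used here. Deposited peak lists hold a chromosome, start and end per line. The knockout list has 29656 lines and the control list 24167. Repeated lines were collapsed, which left 21004 and 15376 intervals, and 159 and 135 intervals off chromosomes 1 to 19 were dropped. Groups were taken from the titles. Positions are 1-based.

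Genes and promoters came from RefSeq tables of GRCm38.p6, the promoter table with 300 bases per listed start. For each site the listed start nearest to the mean centre of both peaks was used. Python 3.11.15, numpy 2.4.6, pandas 2.3.3, scipy 1.17.1 and matplotlib 3.10.9 were used. Pairing and assignment were tested on 2000 simulated gene ends, all sorted as made, and bedtools 2.31.1 found the same 6905 overlaps in the lists. Shares carry Wilson 95% intervals and medians exact order-statistic intervals. The members, lists and named genes were chosen with earlier results of these data known. Named were the 10 widest, the 5 highest and lowest ratios, the 5 with most lines, the sites nearest the limits and up to 5 per list. Genes named Gm or Rik were passed over in these rankings. Other sites named (the edge, extent, germ cell and non-coding RNA examples and the gene families) were chosen after their values were seen. Some genes that this rule names are not reported here.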

Additional observations from a re-analysis of the deposited data

How the results depend on the processing

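The 8 summary values of the members (their number, median width ratio, percentage wider in the knockout, median lines in each list, percentage covering a listed start, and median promoter G+C content and CpG ratio) were recomputed under 10 alternatives. Of the 80 values, 71 stayed within 1.5 times the number of members or within the 95% interval of the value reported, and 9 moved. The number of members was 1186 with a mean width of at least 800 bp, 162 with at least 1200 bp and 329 when the smaller width had to reach 1000 bp. Median lines rose to 4 in both lists at 1200 bp and to 4 in the control with the smaller width. Median G+C content was 65.7% at 800 bp and 69.3% at 1200 bp, and the CpG ratio was 0.880 at 800 bp. The median width ratio stayed between 0.993 and 1.005 and the percentage wider in the knockout between 47.4 and 51.1. Every alternative bounds the width ratio on both sides of equality, which fixes part of both values, so nothing is read from their staying. Of the 502 genes, 499 remained with an overlap of 50% of both peaks, 501 after merging peaks within 200 bp, 485 with intervals listed at least 2 times, 472 with a window of 3 kb, 484 with one of 500 bp, 499 when the control peak assigned the gene and 357 with the narrower planned bounds on the ratio. No paired analysis was possible because each genotype has 1 list, and for the same reason no replicate could be left out. Without peak heights, a site with equal edges and unequal signal cannot be told from an unchanged one.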

Other observations

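Gene families defined by symbol were chosen after the members were seen, so their counts are a description with no test. They stand beside 2.43% of all autosomal coding genes and 8.08% of those open in both genotypes. Among the Upf genes of nonsense-mediated decay, Upf2 had 1167 bp (knockout) and 1353 bp (control), Upf1 862 and 1155 bp, and Upf3a 1108 and 1255 bp. Of 24 genes of importins, exportins and transportins, 6 were members, including Kpnb1, importin beta (1117 and 1105 bp), and Xpo1, the main exportin (1105 and 1151 bp), beside the Ran site described above. Of 55 Rab GTPase genes, 9 were members, Rab28 and Rab10 (1255 and 1542 bp) the widest. Of 11 Srsf genes, 4 were members, as were 3 of 5 Ing genes and 3 of 9 HMG box and HMGN genes, among them Hmgn1 (1336 and 1371 bp) and Hmgb2 (1160 and 917 bp). Members were 6 of 53 Eif genes, 4 of 32 Ube2 genes, 3 of 20 nucleoporin genes, 2 of 19 hnRNP genes, 3 of 39 Zbtb genes and 1 of 21 Smarc and Chd genes. Open in both genotypes were 40 Eif, 26 Ube2, 15 nucleoporin, 16 hnRNP, 21 Zbtb and 12 Smarc and Chd genes. For the families before these, the open genes were 15 of importins, exportins and transportins, 29 Rab, 10 Srsf, 4 Ing and 4 HMG box and HMGN. Members were 7 of 388 Zfp zinc finger genes (1.80%, 0.877 to 3.68), with 53 at ordinary sites. Of 78 mitochondrial ribosomal protein genes 1 was a member (1.28%, 0.227 to 6.91), Mrps30 (1052 and 1037 bp), with 15 at ordinary sites. Both intervals include the 2.43% of all genes. Of these Zfp and mitochondrial ribosomal protein genes, 121 and 47 were open in both genotypes. Among the open genes, the 7 and 1 members are to be read against 8.08%, not 2.43%. Of 1100 olfactory receptor genes none was a member (upper limit 0.348%), nor was any of 49 keratin genes. Only 2 of the olfactory receptor genes and 1 of the keratin genes were open in both genotypes, so few could have been members.

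Some single members, picked after their values were seen and with no list behind them, encode subunits of TIP60, a complex that shares subunits with SRCAP. Trrap had 1237 bp (knockout) and 1001 bp (control), Epc2 had 1186 and 1298 bp, and Actl6a, which is also part of the BAF and INO80 complexes, had 1084 and 1020 bp. Of genes of the small RNA machinery, picked in the same way, Dicer1 had 1260 and 1191 bp, Dgcr8 920 and 1271 bp and Ago1 963 and 1131 bp. Their widths differed in either direction between the lists.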
